A study of Homo sapiens with 24 samples.

Results

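The peaks described here are those of 21 human KRAB zinc finger proteins (KZFPs) that fell on zinc finger genes, the gene family to which the KZFPs themselves belong. A peak was taken when its midpoint lay in the body, extended by 10 kb on each side, of a protein-coding gene whose symbol starts with ZNF, ZFP, ZSCAN or ZKSCAN followed by a digit, in the GENCODE release 44 annotation mapped to hg19. This rule chose 562 of 19813 protein-coding genes, and 1087 of the 64063 peaks deposited for the 21 KZFPs. Of these, 548 of 31717 had a score above 80, the stricter set used below unless stated. The score is the one MACS writes, −log10 of the p-value of a peak times 10, and it ranks peaks within a library only. On either side of the threshold lay members with scores of 79.91 and 80.03. The farthest member midpoint lay 9860 bp from its gene body, and the nearest midpoint left out lay 10006 bp from one. The symbols also name zinc finger genes without a KRAB domain, such as ZFP36L1 and ZFP36L2, which encode RNA-binding proteins.

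Each library came from HEK293T, a line derived from human embryonic kidney, transduced with a vector for 1 KZFP carrying HA tags at its C-terminus and induced with 1 μg/ml of doxycycline. Transduced cells had been selected with puromycin, and chromatin was precipitated with an antibody to HA, so the peaks belong to an overexpressed, tagged protein. For 15 KZFPs (ZFP28, ZKSCAN4, ZKSCAN7, ZNF34, ZNF160, ZNF195, ZNF251, ZNF416, ZNF446, ZNF546, ZNF578, ZNF724P, ZNF729, ZNF763 and ZNF850) the libraries were made by ChIP-exo, where precipitated fragments are digested by exonuclease as far as the protein lets it, which narrows the footprint. The remaining 6 (ZKSCAN8, ZNF20, ZNF213, ZNF256, ZNF597 and ZNF746) were made by ChIP-seq. The HEK293T control, also ChIP-seq, held 163 deposited peaks, of which 0 fell on a zinc finger locus and 72 on other protein-coding loci. There is 1 library per KZFP and no replicate, so that intervals given below cover counting error only and tests compare libraries with each other. The lists hold no read numbers, and depth is known only as a minimum. ChIP-exo libraries had at least 15000000 reads, each of 100 bp, and ChIP-seq libraries at least 27000000, each of 85 bp.

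Zinc finger genes of this kind arose largely by tandem duplication, and many stand side by side in clusters on chromosome 19. In most of them a single last exon codes for the whole array of fingers, repeats that differ at the residues facing DNA and are joined by a short conserved linker, while the KRAB domain is coded by small exons upstream. Through that domain many KZFPs recruit KAP1 (gene TRIM28) and with it a histone methyltransferase and HP1 proteins, and such chromatin has been described over the finger-coding ends of the zinc finger genes.

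The peaks of the ZNF251 library made up most of the set. Some of them hold the 8-base word AAGTGAAA, the most frequent such word in ZNF251 peaks outside zinc finger loci. The promoter peaks with the highest scores mostly lack it. Stretches of 80 bases nearest to the midpoint and outside untranslated exons are shown for 4 of the highest-scoring ZNF251 promoter peaks that had such a stretch and lacked the word, with CpG dinucleotides in capitals (GRCh37, plus strand).
ZNF775, chr7:150076107-150076186: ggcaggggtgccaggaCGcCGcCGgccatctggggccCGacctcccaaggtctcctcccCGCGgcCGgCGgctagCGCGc
ZNF670, chr1:247242117-247242196: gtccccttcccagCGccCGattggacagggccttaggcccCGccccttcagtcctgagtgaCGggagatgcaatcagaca
ZNF33A, chr10:38299497-38299576: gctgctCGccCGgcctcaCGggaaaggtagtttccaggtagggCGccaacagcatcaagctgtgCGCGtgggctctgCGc
ZNF638, chr2:71560829-71560908: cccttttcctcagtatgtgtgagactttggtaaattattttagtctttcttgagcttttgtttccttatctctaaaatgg
The first 3 of them hold 10, 4 and 7 CpG and their peaks were centred 272, 24 and 1 bp upstream of a transcript start. ZNF638 holds 0, and its peak was centred 1957 bp downstream of one.

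Another set, from the last exons, codes for fingers. The most frequent 16-base word in the coding part of the last exons of zinc finger genes was CATACTGGAGAGAAAC, with 614 copies, which spans the start of the conserved linker. Over 4531 copies with at most 4 other letters, the bases present in at least 90% give the linker word CANANNGGNGANAANC. The stretches below are read along the coding strand (GRCh37) and come from the 5 last-exon peaks above 80 that hold this word, which is in capitals.
ZNF562, chr19:9764181-9764264, minus strand: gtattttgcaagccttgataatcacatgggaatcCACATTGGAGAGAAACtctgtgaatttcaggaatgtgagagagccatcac
ZNF79, chr9:130206588-130206671, plus strand: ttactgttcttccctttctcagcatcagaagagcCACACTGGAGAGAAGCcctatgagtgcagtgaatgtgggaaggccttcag
ZKSCAN4, chr6:28213291-28213374, minus strand: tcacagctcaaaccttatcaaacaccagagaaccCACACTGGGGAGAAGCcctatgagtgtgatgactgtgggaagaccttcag
ZNF322, chr6:26638288-26638371, minus strand: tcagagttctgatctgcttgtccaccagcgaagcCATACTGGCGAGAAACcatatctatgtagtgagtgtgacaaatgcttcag
ZNF791, chr19:12739441-12739524, plus strand: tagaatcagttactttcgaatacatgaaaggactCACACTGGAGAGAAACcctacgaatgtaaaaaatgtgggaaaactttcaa
The peaks at ZNF562, ZNF79, ZNF322 and ZNF791 belong to the ZNF251 library, with scores of 422.45, 264.46, 143.96 and 98.6, and the peak at ZKSCAN4 to the library of ZKSCAN4 itself, with a score of 170.98. The peaks at ZNF562 and ZNF79 hold 1 linker word each, those at ZNF322 and ZNF791 hold 3 and 4, and the peak at ZKSCAN4 holds 5.

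The number of peaks at zinc finger loci differed widely between libraries. ZNF251 had 444 peaks above 80 there and ZNF160 had 60, followed by ZNF578 with 13, ZFP28 with 10 and ZNF724P with 5. Other ChIP-exo libraries had 1 to 3 peaks above 80 there, 3 each for ZKSCAN7 and ZNF763, 2 each for ZNF34 and ZNF850, and 1 each for ZKSCAN4 and ZNF546. Among the ChIP-seq libraries ZNF746 had 3, ZNF20 had 1, and ZNF213, ZNF256, ZNF597 and ZKSCAN8 had 0. The ChIP-exo libraries of ZNF195, ZNF416, ZNF446 and ZNF729 also had 0 above 80, although ZNF195 had 39 deposited peaks at zinc finger loci, the highest with a score of 79.57. Without ZNF251 the set falls to 104 peaks above 80, and without ZNF251 and ZNF160 to 44.

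Zinc finger loci covered 31.0 Mb, which is 2.05% of the length of all protein-coding loci, and they held 3.17% of the peaks above 80 at protein-coding loci. The ZNF251 library alone gave 3.61% (444 peaks, with 11856 at other protein-coding loci, exact Clopper-Pearson 95% interval 3.29% to 3.96%), or 14.3 peaks per Mb against 8.01 per Mb at other protein-coding loci. ZNF578 gave 2.97% (1.59% to 5.02%) and ZNF160 gave 2.33% (1.78% to 2.99%), with 1.94 against 1.70 peaks per Mb. ZFP28 gave 1.53% (0.734% to 2.79%) and ZNF850 gave 0.830% (0.101% to 2.97%). The interval of ZNF251 was the only one of the 15 libraries with at least 20 peaks at protein-coding loci that left out the share of the length. With all deposited peaks it was left out from above also by ZNF578 (3.405%, 2.31% to 4.83%) and ZNF160 (2.55%, 2.065% to 3.104%), and from below by ZKSCAN7 (1.27%, 0.816% to 1.89%) and ZNF416 (0.863%, 0.317% to 1.87%). Over these 15 libraries, the log2 ratio of the density at zinc finger loci to that at other loci averaged 0.03 ± 0.81 (SD, n = 15), above 0 in 8 of them (exact two-sided permutation test over libraries, p = 0.868, adjusted p = 0.875 over 7 tests). Within the 13 ChIP-exo libraries among them it averaged 0.05 ± 0.85 (SD, n = 13). With 1 instead of 0.5 added to the counts it was 0.37 ± 0.69, above 0 in 10 of 15 (exact permutation p = 0.0540, adjusted p = 0.146), and ZNF195, ZNF416 and ZNF446, without a member above 80, enter only through the added value. ZNF20 counts among the 8 above 0 only through the 0.5 added, with 0.0323 peaks per Mb at zinc finger loci and 0.0372 at other loci. No call was made for the libraries as a group, and a count pooled over them mainly describes ZNF251.

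**Figure D1:**
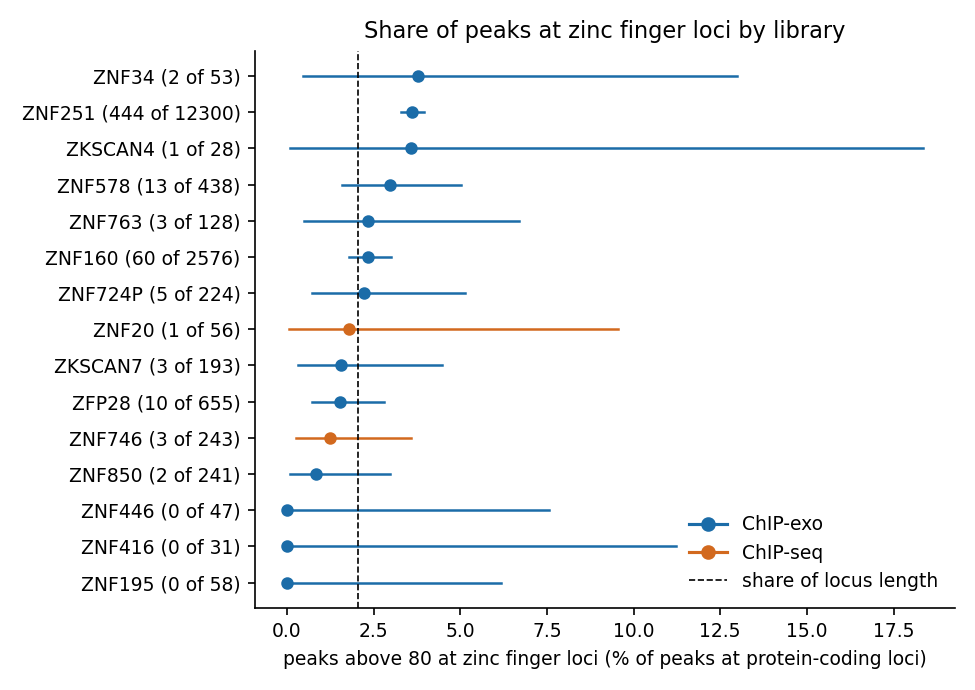
Share of the peaks above 80 at protein-coding loci that lay on zinc finger loci (x axis, percent), for the 15 libraries with at least 20 such peaks. Points are shares with exact 95% intervals (blue for ChIP-exo, orange for ChIP-seq), the numbers behind each name are peaks at zinc finger loci of all peaks at protein-coding loci, and the dashed line is the share of the length (2.05%). ZNF251, with 3.61%, has the only interval that does not reach the line.

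Counted by gene, 330 of the 562 zinc finger genes (58.7%) had a peak above 80 of any KZFP in their locus, against 49.0% of all protein-coding genes. Their loci had about the same length, with a median of 45.7 kb against 47.1 kb at other protein-coding genes. Leaving out the ZNF251 library, 90 of them (16.0%, interval 13.1% to 19.3%) had one, beside 20.6% of all protein-coding genes. Peaks of 2 or more KZFPs were found at 64 zinc finger genes (11.4%), beside 13.3% of all genes, and a ZNF160 peak at 58 (10.3%), beside 10.6%. When all deposited peaks were counted, 437 zinc finger genes (77.8%) had one, beside 69.4% of all genes. Over all chromosomes, the share of zinc finger genes with a peak above 80 thus lay above the background with ZNF251 and not without it. Within chromosome 19, a ZNF160 peak was found at 10.0% of zinc finger genes (26 of 260, 6.64% to 14.3%) and at 2.55% of the other genes (30 of 1176, 1.73% to 3.62%), and peaks of 2 or more KZFPs at 10.4% and 4.59%. The median locus there was 45.8 kb at zinc finger genes and 33.6 kb at the other genes, so these shares do not compare loci of equal length. Among the 29 ZSCAN and ZKSCAN genes, which code for a SCAN dimerization domain beside their fingers, 11 had a peak above 80 (37.9%, 20.7% to 57.7%).

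By position, the 548 peaks above 80 fell into 162 at promoters (within 2500 bp of a transcript start), 30 in the last exon, 2 in other exons, 258 in introns and 96 in the flanks. Of the 104 peaks that remain without ZNF251, 14 were at promoters, 5 in the last exon, 53 in introns and 32 in the flanks. ZNF160 had 35 of 60 peaks in introns (58.3%, 44.9% to 70.9%) and 5 at promoters. At other protein-coding genes 82.4% of its peaks were in introns. ZFP28 had 7 of 10 in introns, beside 75.7% at other genes. Introns made up 17.3 of the 31.0 Mb of zinc finger loci. ZNF746, whose ChIP-seq peaks mostly lie at promoters, had 10 of its 12 deposited peaks at the promoters of zinc finger genes and the other 2 in last exons, beside 423 of 535 at promoters of other genes. Its 3 peaks above 80 were at ZNF652, ZFP36L2 and ZFP36L1, with scores of 206.32, 152.48 and 131.02.

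ZNF251 had 148 peaks above 80 at promoters of zinc finger genes (33.3% of its 444, 29.0% to 37.9%), and 2398 at promoters of other genes (20.2% of 11856, 19.5% to 20.96%). Per Mb of promoter this came to 34.3 peaks at zinc finger genes and 15.4 at other genes. By gene, 132 of 562 zinc finger genes (23.5%, 20.0% to 27.2%) carried a ZNF251 promoter peak, beside 13.4% of all protein-coding genes. The highest scores were 3100.0 at the promoter shared by ZNF524 and ZNF865, 2828.42 at ZNF775, 2768.96 at ZNF670, 2377.16 at ZNF33A and 2342.86 at ZNF317. Of these 5 peaks, the one at ZNF317 holds the 8-base word named above, and the others do not. Further down followed the promoters of ZNF638 (2044.84), ZNF527 and ZNF875 (1437.6), ZNF461 (1158.7), ZNF133 (1048.33), and ZNF688 and ZNF785 (1018.32).

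Promoter peaks of ZNF251 gathered at the start itself. Of the 148, 75 had their midpoint within 500 bp of a transcript start (50.7%, 42.3% to 59.0%), and the median distance was 475 bp. At other protein-coding genes 54.2% (52.2% to 56.2%) were as close, with a median of 408 bp. The midpoint was upstream of the start in 52.7% (44.3% to 61.0%) and in 49.8% (47.7% to 51.8%) of them, so that the position relative to the start was alike within counting error.

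**Figure D2:**
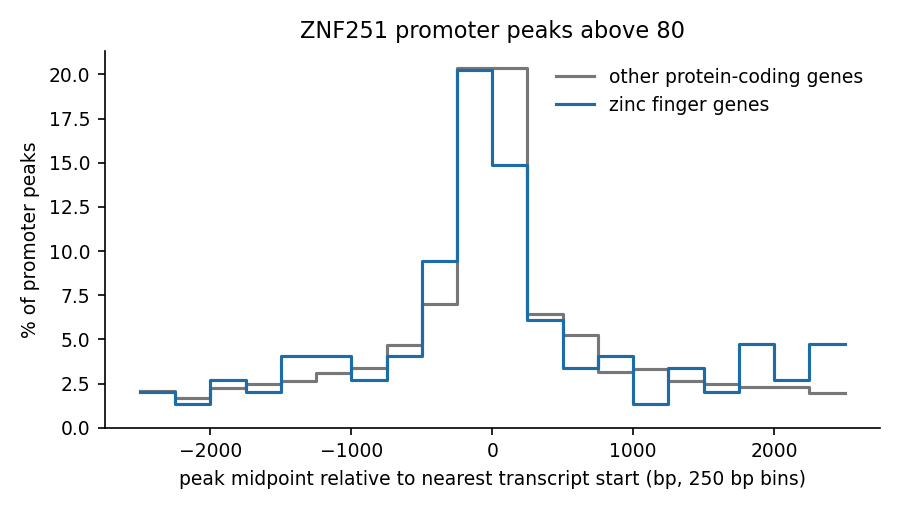
Position of ZNF251 promoter peaks above 80 relative to the nearest transcript start (x axis, bp, bins of 250 bp), as a percent (y axis) of the 148 peaks at zinc finger genes (blue) and of the 2398 at other protein-coding genes (grey). Both lines are highest next to the start, with 30 and 22 zinc finger peaks in the bins on either side of it.

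In introns ZNF251 had 205 peaks at zinc finger genes, or 11.8 per Mb, against 7.13 per Mb in introns of other genes. The highest lay in ZNF12 (1749.25), ZKSCAN2 (1505.12), ZNF707 (1311.59) and ZNF783 (1303.1). In the flanks it had 64 peaks, or 8.83 per Mb against 8.20. ZNF160 had 2.02 peaks per Mb in introns of zinc finger genes against 1.88 elsewhere, and 1.16 against 0.398 at promoters, the latter from 5 peaks. Its highest member peaks lay in introns of ZNF407 (553.99), ZNF16 (535.02) and ZNF557 (523.2).

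**Figure D3:**
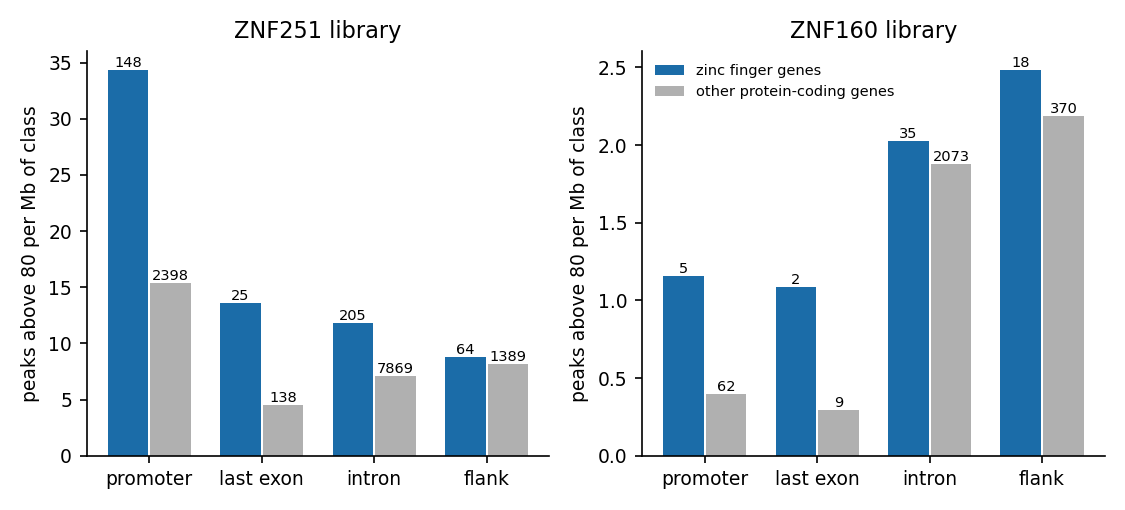
Peaks above 80 per Mb of promoter, last exon, intron and flank (y axis) at zinc finger genes (blue) and other protein-coding genes (grey), in the ZNF251 (left) and ZNF160 (right) libraries, each on its own scale from 0 and with the number of peaks above each bar. In the ZNF251 library the values at zinc finger genes run from 8.83 in flanks to 34.3 at promoters.

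Last exons held 30 peaks above 80 in 26 genes, 25 of them from ZNF251, 2 from ZNF160, and 1 each from ZKSCAN4, ZNF578 and ZNF763. By gene, 27 of 562 (4.80%, 3.19% to 6.91%) had a last-exon peak (a peak counted at each gene whose last exon it lies in), beside 1.16% of all protein-coding genes. The last exons of zinc finger genes are long, and they covered 1.84 Mb. In the ZNF251 library the density was 13.6 per Mb in last exons of zinc finger genes, 11.8 in their introns, and 4.47 in last exons of other genes. Only 10 of the 30 peaks (33.3%, 17.3% to 52.8%) had their midpoint in coding sequence, which makes up 36.9% of the last-exon length, and the other 20 lay in untranslated sequence. ZNF562 had 4 of the 30, 2 of ZNF251 (scores 422.45 and 119.39), 1 of ZNF578 (296.56) and 1 of ZNF160 (169.92), at separate positions. ZNF892 had 2 (ZNF160, 98.11, and ZNF251, 90.36), and ZFP92 (136.58), ZNF101 (99.26) and ZNF12 (748.63) had 1 each, all of ZNF251. The order among the genes with 1 peak follows the alphabet.

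The linker word was found in 5 of the 30 last-exon peaks above 80 (16.7%, 5.64% to 34.7%) and in 16 of the 66 deposited ones (24.2%, 14.5% to 36.4%). Among all 500-bp windows centred in the last exons of zinc finger genes, searched on both strands like the peaks, 27.1% held it, and 0.121% of the windows of other protein-coding loci did. In intronic member peaks it was found in 2 of 258. The share under last-exon peaks did not differ from that of the exons at large beyond counting error.

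Compared across libraries, positions within the genes gave no call with peaks above 80. The 5 libraries with at least 5 such peaks (ZFP28, ZNF160, ZNF251, ZNF578 and ZNF724P) had a log2 density ratio of last exon to intron of 0.13 ± 0.93 and of promoter to intron of 0.11 ± 1.18 (SD, n = 5). With 5 libraries the exact permutation test cannot give a p below 0.0625, so that it could not pass 0.05, and it gave p = 0.812 and 0.875. Relative to the same ratio at other protein-coding genes, the last exon averaged 0.85 ± 0.92 (4 of 5 libraries above 0, exact permutation p = 0.125) and the promoter 0.38 ± 0.85 (3 of 5, exact permutation p = 0.500), each with an adjusted p of 0.875. With 1 added to the counts, both were above 0 in 5 of 5 libraries, at 1.24 and 0.64 (exact permutation p = 0.0625 for each, adjusted p = 0.146). In libraries with few peaks these ratios rest on the value added to each count. ZFP28 and ZNF724P had 0 last-exon peaks above 80 at zinc finger genes, and ZNF724P had 0 promoter peaks. Where their ratios for these classes lie above 0, as in the 5 of 5, it is only through the added value. With all deposited peaks, which gave 16 libraries, the log2 ratio of promoter to intron averaged 1.13 ± 1.73, above 0 in 14 of 16 (permutation test, p = 0.00488, adjusted p = 0.0342). This call was lost when any 1 of ZKSCAN4, ZNF20, ZNF195, ZNF251, ZNF416, ZNF546, ZNF746 or ZNF850 was left out, the mean falling to 0.77 and the adjusted p rising to 0.0684 without ZNF746. ZNF446 counts among the 14 above 0 only through the 0.5 added, with 0.232 peaks per Mb at promoters and 0.289 in introns. Relative to other protein-coding genes, the promoter ratio of these 16 libraries was 0.54 ± 1.08, above 0 in 12 (permutation test, p = 0.0456, adjusted p = 0.106), and the last-exon ratio 0.90 ± 1.58, above 0 in 11 (p = 0.0320, adjusted p = 0.106). Neither passed the adjusted threshold, so the promoter call is not shown to be particular to zinc finger genes. Among the 11 libraries, ZNF20, ZNF416 and ZNF446 had 0 last-exon peaks at zinc finger genes and lie above 0 only through the 0.5 added. Among the 12, ZNF20 and ZNF446 likewise lie above 0 only through it.

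Of the zinc finger genes, 260 (46.3%) lie on chromosome 19. The ZNF251 library had 17.4 peaks per Mb at these loci, 12.6 per Mb at zinc finger loci of other chromosomes, and 6.40 per Mb at the other protein-coding loci of chromosome 19. ZNF160 had 2.23, 1.77 and 0.653 peaks per Mb in the same order. ZNF724P had 3 of its 5 member peaks on chromosome 19, and ZFP28 had 3 of 10 and ZNF578 had 4 of 13. Over the 5 libraries the log2 ratio of chromosome 19 to other zinc finger loci was 0.31 ± 0.65, above 0 in 3 of 5 (exact permutation p = 0.375, adjusted p = 0.875). Against the other protein-coding loci of chromosome 19 it was 0.13 ± 1.51 over 15 libraries, above 0 in 8 of them (exact permutation p = 0.746, adjusted p = 0.875). Neither passed the test. ZKSCAN4, ZNF195, ZNF416, ZNF446 and ZNF746 had 0 members above 80 on chromosome 19, so the zinc finger side of their ratios is the 0.5 added. At the other protein-coding loci of chromosome 19, ZNF746 had 9 peaks, ZNF195 had 4, and ZKSCAN4 and ZNF446 had 1 each. ZNF416 had 0 there too, so its ratio comes from the 0.5 added and the locus lengths. ZNF416 counts among the 8 above 0 for that reason alone.

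On chromosome 19 the promoter share of ZNF251 was 42.1% (82 of 195 peaks, 35.0% to 49.3%), and at zinc finger genes of other chromosomes 26.5% (66 of 249, 21.1% to 32.4%). Introns took 37.4% (30.6% to 44.6%) and 53.0% (46.6% to 59.3%). By gene, 75 of 260 zinc finger genes of chromosome 19 (28.8%) and 57 of 302 elsewhere (18.9%) had a ZNF251 promoter peak, beside 113 of the 1176 other protein-coding genes of chromosome 19 (9.61%). Per Mb of promoter the ZNF251 library had 41.6 peaks at zinc finger genes of chromosome 19 and 28.2 at those of other chromosomes. Per Mb of intron the ZNF251 density was also slightly higher at those of chromosome 19. The lower intron share there therefore does not mean fewer intronic peaks per Mb.

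Chains of at least 4 zinc finger genes with gaps of at most 250 kb formed 27 clusters, 12 of them on chromosome 19, with 243 of its 260 zinc finger genes. The 5 with most genes are all on chromosome 19 and differed in their ZNF251 peaks. The cluster from ZNF565 to ZNF573 (29 genes, chr19:36673178-38307940) had 40 ZNF251 peaks, or 26.5 per Mb (exact Poisson 95% interval 18.9 to 36.1), and 20 of its genes had a ZNF251 promoter peak. The cluster from ZNF264 to ZNF446 near the end of the long arm (47 genes, chr19:57702868-58992597) had 33 ZNF251 peaks, or 26.1 per Mb (18.0 to 36.7), and a promoter peak at 15 genes. The cluster from ZNF175 to ZNF331 (40 genes) had 15.7 per Mb (10.2 to 23.2) and that from ZNF653 to ZNF791 (25 genes) 17.9 per Mb (10.6 to 28.3). The cluster from ZNF737 to ZNF254 (29 genes, chr19:20718631-24312770), next to the centromere, had 18 ZNF251 peaks, or 8.87 per Mb (5.26 to 14.0), and a promoter peak at 2 genes. In it 10 of 29 genes had a peak above 80 of any KZFP, against 28 of 29 in the ZNF565 to ZNF573 cluster. ZNF160 had 6 peaks in the latter and 0 in the former. The highest ZNF251 densities among the 27 clusters lay on other chromosomes. On chromosome 12, ZNF605 to ZNF268 (7 genes, 17 peaks) had 55.8 per Mb (32.5 to 89.4). On chromosome 16, ZSCAN10 to ZNF597 (9 genes, 11 peaks) had 45.5 per Mb (22.7 to 81.4). The lowest was on chromosome 7, with 5.99 per Mb (0.725 to 21.6) from ZNF786 to ZNF746 (8 genes, 2 peaks).

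**Figure D4:**
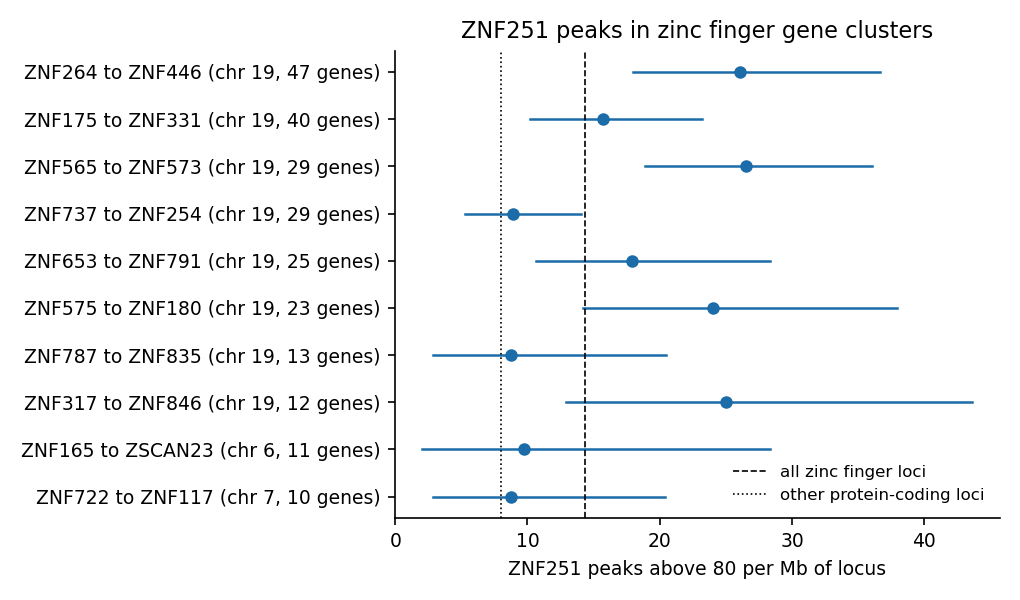
ZNF251 peaks above 80 per Mb of locus (x axis) in the 10 zinc finger gene clusters with most genes. Points are densities with exact Poisson 95% intervals, the dashed line is the density over all zinc finger loci (14.3) and the dotted line that over other protein-coding loci (8.01). The clusters from ZNF264 to ZNF446 and from ZNF565 to ZNF573 lie to the right of both lines with their whole intervals, and that from ZNF737 to ZNF254 lies near the dotted line.

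Of the 21 transduced genes, 18 had no deposited peak of their own library and 3 had one above 80. Most libraries had few peaks above 80 at any zinc finger locus. The share of genes that a given library reaches was not worked out as a baseline, so this count is not called low or high. The ZKSCAN4 library had a peak of 985 bp in the last exon of ZKSCAN4 (chr6:28212782-28213766, score 170.98), of which 857 bp are coding sequence. The transduced construct carries that coding sequence as well, and reads from the construct and from the gene cannot be told apart in a peak list. This was the only peak above 80 of that library at a zinc finger locus. The ZNF160 library had a peak of score 93.68 at a promoter of ZNF160 (chr19:53581125-53581393), and the ZNF251 library had one of 94.02 at the promoter and one of 79.44 in the flank of ZNF251. None of these 3 overlapped coding sequence of the gene.

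Peaks above 80 of other KZFPs lay at 14 of the 21 transduced genes. A peak above 80 of any KZFP lay at 49.0% of all protein-coding and 58.7% of all zinc finger genes. The count of 14 draws on all libraries but the gene's own, so it cannot be compared with the count of own-gene peaks. Among all zinc finger genes, 330 of 562 had a peak above 80 of any KZFP and 90 had one of a KZFP other than ZNF251. ZNF251 had a peak above 80 at 11 of the 20 transduced genes other than its own. The share of all zinc finger genes with a ZNF251 peak in the locus is not given here, so the 11 are not called many or few. At promoters, ZNF251 had a peak above 80 at 7 of the 21 (33.3%, 14.6% to 57.0%), its own gene included. Beside this stand 23.5% of all zinc finger genes and 13.4% of all protein-coding genes with a promoter peak of ZNF251. Its peaks lay at the promoters of ZKSCAN8 (590.01), ZNF256 (398.97), ZNF160 (396.45), ZFP28 (159.56) and ZNF416 (114.06), in introns and promoters of ZNF850 (355.81 for the highest), in introns of ZNF724 (326.81, the gene of ZNF724P), and in the flanks of ZNF195 (360.92), ZNF213 (206.9), ZNF20 (119.47) and ZNF546 (93.95). ZFP28 had its highest peak at any zinc finger gene, 622.78, in an intron of ZNF746. ZNF251 itself carried an intronic peak of ZNF160 (164.95) and a flanking one of ZNF578 (109.34). Peaks of ZKSCAN7 (87.46, flank of ZNF729), ZNF763 (82.85, intron of ZNF195), ZNF20 (87.67, flank of ZNF546) and ZNF160 (281.3, flank of ZNF546) complete these pairs. ZNF34 was the 1 transduced gene without any peak.

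Zinc finger genes with peaks of several KZFPs were about as frequent as such genes at large (11.4% beside 13.3% of all protein-coding genes). Not counting a library at its own gene, 233 genes had no peak above 80, 266 had peaks of 1 library, 55 of 2, 6 of 3 and 2 of 4. ZNF721 (chr4:419604-492945) had 8 peaks of 4 libraries, namely 5 of ZNF251 with scores from 102.78 to 245.57, and 1 each of ZNF578 (341.3), ZNF724P (189.62) and ZNF160 (126.63). ZNF512 (chr2:27805836-27846084) had a peak of ZNF578 at its promoter (562.86), of ZFP28 and ZNF160 in its introns (456.51 and 382.76) and of ZNF251 in its flank (92.62). Peaks of 3 libraries were found at ZNF562 (ZNF251, ZNF578 and ZNF160), ZSCAN5A (ZNF251, ZNF724P and ZNF160), ZNF44 (ZNF251, ZNF160 and ZNF763), ZFP30 and ZNF568 (both ZFP28, ZNF160 and ZNF251) and ZNF546 (ZNF160, ZNF251 and ZNF20). ZFP90 and ZNF174 followed with 5 peaks each of 2 libraries, 4 of them of ZNF251.

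These KZFPs rarely shared a position. Merged over libraries, the peaks above 80 at zinc finger loci formed 547 regions, and 1 of them (0.183%, 0.005% to 1.01%) held peaks of 2 libraries, an intron of ZNF557 with ZNF160 (523.2) and ZNF251 (535.38). Elsewhere 320 of 30671 regions (1.04%, 0.933% to 1.16%) were shared. Apart from ZNF557, zinc finger genes with peaks of several KZFPs had them at separate positions.

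The highest-scoring zinc finger locus differed between libraries, own genes left out. Promoters held it for ZNF251 (ZNF524, 3100.0), ZNF578 (ZNF512, 562.86), ZNF546 (ZNF697, 345.57), ZNF34 (ZNF566, 294.04) and ZNF746 (ZNF652, 206.32). For ZNF34, ZNF546 and ZNF746 these peaks were centred 43, 90 and 5 bp downstream of the start. Introns held it for ZFP28 (ZNF746, 622.78), ZNF160 (ZNF407, 553.99), ZNF724P (ZNF544, 201.74), ZNF850 (ZNF589, 164.52) and ZNF763 (ZNF44, 96.08). In the flanks lay those of ZKSCAN7 (ZNF718, 112.79) and ZNF20 (ZNF546, 87.67).

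The 8-base word AAGTGAAA was less frequent in intronic and flanking member peaks of ZNF251 than in those of other protein-coding genes. On either strand, it was present in 89 of the 444 member peaks (20.0%, 16.4% to 24.1%) and in 37.8% (36.9% to 38.7%) of the 11856 peaks at other protein-coding loci, beside 4.59% and 5.00% of all 500-bp windows of these loci. At promoters the shares were 15.5% (10.1% to 22.4%) and 13.3% (12.0% to 14.7%), which agree within counting error. In introns they were 21.5% (16.1% to 27.7%) against 44.6% (43.5% to 45.7%), and in flanks 28.1% (17.6% to 40.8%) against 44.1% (41.4% to 46.7%). The median widths of the intronic peaks, 452 and 450 bp, were nearly the same. The gap was also present at each level of the score, with 13.3% against 23.4% for scores above 80 to 120, and 29.3% (19.4% to 41.0%) against 55.1% (53.3% to 57.0%) for scores above 400. On chromosome 19 the word was in 14.4% (9.76% to 20.1%) of member peaks and in 23.3% (17.7% to 29.7%) of those at its other loci. The word was chosen as the most frequent in peaks outside zinc finger loci, and the comparison has no test. These include the peaks that the members are compared with, so the choice favours a lower share at members.

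Another word, GTTGCAGTGA, was picked after the values were seen as the 10-base word whose share differed most in the other direction, so its excess at members is not a result. It was in 18.5% of member peaks of ZNF251 and in 6.81% of its peaks at other protein-coding loci, while 10.7% and 7.68% of the windows held it. On chromosome 19 these shares were 24.6% and 14.1%, with 14.2% and 17.5% of the windows.

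**Figure D5:**
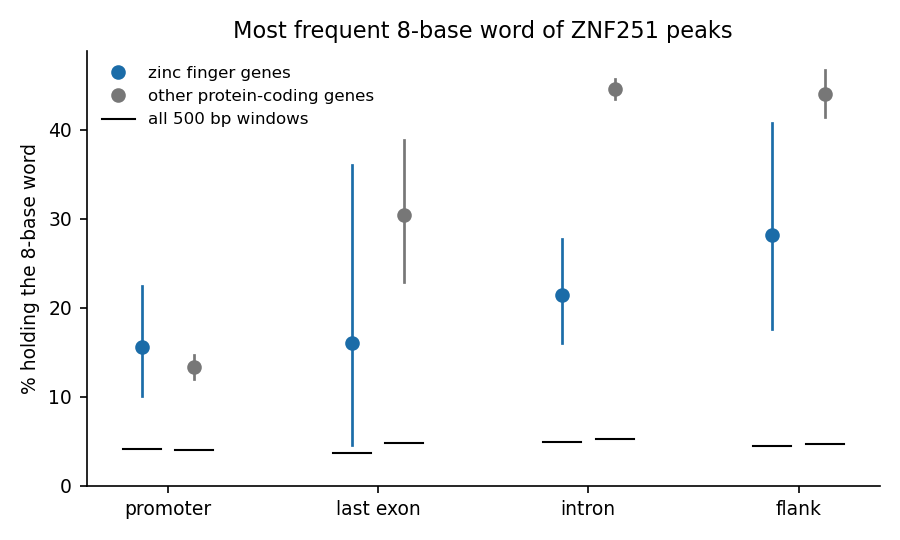
Share of ZNF251 peaks above 80 that hold the word AAGTGAAA on either strand (y axis, percent) by position in zinc finger genes (blue) and other protein-coding genes (grey), with exact 95% intervals. Black dashes give the share of all 500-bp windows of the same kind. The intervals overlap at promoters (15.5% and 13.3%) and not in introns (21.5% and 44.6%).

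For the other libraries with at least 5 members the most frequent 8-base word was found the same way. GGTCCTGA was in 6 of 13 ZNF578 member peaks (46.2%, 19.2% to 74.9%) and in 60.0% of its peaks at other protein-coding loci, all 4 intronic members included. GAAATAGA was in 5 of 10 ZFP28 members, beside 35.2%. AAAGAAAT was in 28.3% (17.5% to 41.4%) of the 60 ZNF160 members, beside 37.8%, and in 9.18% of windows of zinc finger loci. AAGTCCAA was in 0 of 5 ZNF724P members (upper limit of the exact interval 52.2%), beside 50.7% of 219 peaks at other loci. With so few members these shares could not be separated at this depth. For ZNF251 the intervals did not overlap, but there too the word was chosen in peaks that include the comparison group.

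Genes of the KAP1 pathway, from a list of 17, served as a comparison. A peak above 80 of any KZFP lay at 8 of the 17 (47.1%, 22.98% to 72.2%), beside 49.0% of all protein-coding genes and 58.7% of zinc finger genes. ZNF160 had a peak with a score of 1070.47 at HDAC2, a histone deacetylase gene. ZNF251 had a promoter peak at 6 of the 17 (35.3%, 14.2% to 61.7%), beside 13.4% of all protein-coding genes and 23.5% of zinc finger genes. It had peaks at SIRT1 (737.14), another deacetylase gene, at CBX3 (342.46) and CBX5 (278.23), which code for HP1 proteins, and at SETDB1 (83.02), the methyltransferase that KAP1 recruits. TRIM28, DNMT1, MORC3, SMARCAD1 and TASOR had deposited peaks but none above 80. CBX1, CHD3, HDAC1 and MPHOSPH8 had no deposited peak. Olfactory receptor genes, another large family in tandem clusters, had a peak above 80 at 93 of 391 (23.8%, 19.6% to 28.3%) and a ZNF251 promoter peak at 14 (3.58%), with shorter loci of a median of 22.5 kb.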

How the data were processed

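Peak lists of 21 KZFP libraries and the HEK293T control were used. Total inputs were not used here. Per the methods, the authors mapped reads to hg19 with Bowtie2 and called peaks with MACS in each library, against sampled total input with all duplicates kept for ChIP-exo and against total input for ChIP-seq. The submitters' processing notes name Bowtie2 2.2.1 and MACS 1.4. The deposited value is the MACS score (−log10 p times 10), from 50 upwards. It depends on depth and control, so scores of different libraries were not compared.

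Starts were converted to 1-based. All peaks lay within the chromosomes of GRCh37. Each midpoint was classed as promoter (2500 bp from the start of any protein-coding transcript), then last exon, other exon or intron of the transcript with the longest coding sequence, then flank, and lengths were counted likewise, zinc finger genes first. ZNF724P is ZNF724 in GENCODE, matched through RefSeq synonyms. Reads shared between near-identical zinc finger genes could move peaks among them, as ChIP-exo lists kept duplicates and only the ChIP-seq reads are stated to have passed a mapping quality filter.

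Densities were compared as log2 ratios (0.5 added to counts) by two-sided paired sign-flip permutation over libraries in scipy 1.17.1 (all sign flips up to 16 libraries, hence exact, and 100000 draws with more), with Benjamini-Hochberg adjustment over 7 tests. Libraries needed 20 peaks above 80 at protein-coding loci, or 5 at zinc finger loci. The scripts were tested on simulated peaks. Named genes were the transduced genes, the 10 genes with peaks of most libraries, the highest peak per library, the 5 genes with most last-exon peaks, the 5 largest clusters, the KAP1 list and olfactory receptor genes. The other named ZNF251, ZNF160 and ZNF746 peaks, the named clusters of other chromosomes and the sequence words were chosen after their values were seen. The members and lists were chosen with earlier results of these data known. The sequence around the 8-base word is not reported here.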

Additional observations from a re-analysis of the deposited data

How the results depend on the processing

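The count of 548 peaks became 1087 with all deposited peaks, 287 with scores above 150 and 104 with ZNF251 left out, and the 330 zinc finger genes with a peak became 90 with ZNF251 left out. The density at zinc finger loci against other loci (log2 0.03) turned to -0.073 without peaks at the transduced gene and to -0.023 without ZNF251. The ratio of chromosome 19 to other zinc finger loci (0.31) turned to -0.20 with scores above 150. The ratio of last exon to intron (0.13) turned to -0.094 with exons of any transcript, and that of promoter to intron (0.11) to -0.25 without ZNF251. These main values were not past the threshold. The last ratio passed it with all deposited peaks (1.13, permutation test over libraries, adjusted p = 0.0342), where leaving out ZNF746, added after seeing the data, gave 0.77. A promoter of 1000 bp moved the ratio of promoter to intron to 0.82 (above 0 in 4 of 5), without a call. With scores above 150 the ratios relative to other genes became 1.58 for the last exon and 1.05 for the promoter. Each was above 0 in 4 of 4 libraries, also without a call. Of these 4, ZFP28 had 0 last-exon peaks at zinc finger genes even among all deposited peaks. Its last-exon ratio thus lies above 0 only through the value added to each count. With 1 added to the counts every one of the 7 ratios was higher, the lowest adjusted p being 0.146. The causes were not tested. Leaving out peaks that overlap the control could change little, as no member above 80 overlaps one. The lists hold no read numbers, so depth limits of single peaks are unknown.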
